A study of Mus musculus with 12 samples.

Results

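The genes described here are 36 mouse genes whose products build ribosomes. They were chosen by symbol, not by any measured level, and are 36 of the 54356 genes to which the sequenced reads were assigned. All 36 were found and all passed the filter on low counts, with between 137 reads (Gar1) and 30363 reads (Ncl) per library. They comprise 3 subunits of RNA polymerase I, 3 proteins of box C/D and 4 of box H/ACA small nucleolar ribonucleoproteins (snoRNPs), the snoRNP chaperone Nolc1, 6 nucleolar scaffolds and chaperones, and 11 and 8 assembly factors of the small and the large ribosomal subunit.

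Ribosomes are built in the nucleolus. RNA polymerase I makes a long precursor RNA, and snoRNPs modify its nucleotides and guide its folding. A large set of assembly factors cuts this precursor and joins it with ribosomal proteins into the small and large subunits. The pathway is one of the main users of energy in dividing cells, is driven by growth factor signals and by the transcription factor MYC, and is generally lower in cells that have left the cell cycle.

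RNA came from mouse primary neural stem cells labelled wild type or Chd5-/- (lacking Chd5, a chromatin remodeller of neurons), with 3 libraries per group. All cells had grown in DMEM/F-12 with N-2 supplement, albumin, epidermal growth factor and fibroblast growth factor 2. They were taken 3 h or 48 h after a change to neurobasal medium with B-27, albumin and L-glutamine, which starts neural differentiation, and the study asks which genes differ in cells deficient in Chd5. The labels give no strain, age, animal or culture behind the replicate numbers and no deleted part of Chd5, so the p-values below measure the spread between these samples, which may be technical.

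The libraries held 14.11 to 18.71 M estimated reads. The 10 stem cell markers summed to 4822 to 9320 CPM over the libraries, where CPM is counts per M reads of library size scaled by TMM. They were uneven: Vim was at 967 to 3955 CPM, Pax6 at 3.14 to 44.0 CPM and Prom1 at 0.674 CPM or less. The 7 oligodendrocyte lineage markers summed to 648 to 2134 CPM, with Olig1 at 408 to 1222 CPM and Olig2 at 214 to 828 CPM. In that list Sox10 and Mbp stayed at or below 0.467 and 2.13 CPM. Microglial markers stayed at or below 0.310 CPM and endothelial markers at or below 9.04 CPM. The 7 fibroblast and smooth muscle markers summed to 573 to 606 CPM in the Chd5-/- libraries at 3 h and to at most 16.4 CPM elsewhere, and nearly all of that sum was Acta2 (566 to 598 CPM), a smooth muscle actin. The list split: with 12 libraries Acta2 and Tagln were higher in Chd5-/- at 3 h, and the collagen genes Col1a1 and Col3a1 were lower (edgeR adjusted p = 8.27e-04, 0.00633, 0.0462 and 0.0210). The sums of other lists separated the genotypes at 3 h as well. Neuron markers summed to 1194 to 1303 CPM in Chd5-/- and 234 to 642 CPM in wild type, stem cell markers to 8985 to 9320 and 5839 to 8308 CPM, and astrocyte markers to 30.3 to 33.0 and 65.0 to 70.6 CPM. In the neuron sum, Map2 held 1095 to 1212 CPM in Chd5-/- and 114 to 490 CPM in wild type. Tubb3 went the other way, at 89.9 to 98.4 and 119 to 157 CPM. Among markers tested with 12 libraries, 1 of 5 neuron, 6 of 9 stem cell and 1 of 5 astrocyte genes had a positive difference. Chd5 RNA was low and did not mark the genotype: at 3 h the wild-type libraries held 3.54 to 4.66 CPM and those labelled Chd5-/- 5.25 to 7.06 CPM, and at 48 h they held 5.28 to 7.15 and 2.96 to 5.70 CPM, with overlap. In 3 of the 4 groups, 1 library stood apart. In wild-type replicate 1 at 3 h, ribosomal protein genes held 15.7% of the reads, and at most 4.32% in any other library. Replicate 2 of both genotypes at 48 h kept 15 mitosis genes high, at a mean log2(CPM + 1) of 7.16 and 6.96 against 3.34 to 3.43 in replicates 1 and 3. Every result is therefore given for all 12 libraries and for the 9 left without these 3.

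At 3 h the 36 genes together took 0.611% to 0.666% of the reads of a library. At 48 h they took 0.279%, 0.466% and 0.287% in wild-type replicates 1, 2 and 3, and 0.346%, 0.438% and 0.348% in the same replicates of Chd5-/-. By this share all 6 libraries at 48 h were below all 6 at 3 h, and replicate 2 was the highest of both 48 h groups. Per transcript length (TPM, transcripts per M) the times overlapped in wild type. There the 36 genes summed to 2163, 3508 and 3467 TPM at 3 h and to 1841, 3587 and 1851 TPM at 48 h. In Chd5-/- they summed to 3818, 3819 and 3753 TPM and then to 2238, 2931 and 2224 TPM. In this bulk RNA, fewer cells that express a gene and less of its RNA per cell cannot be told apart.

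**Figure D1:**
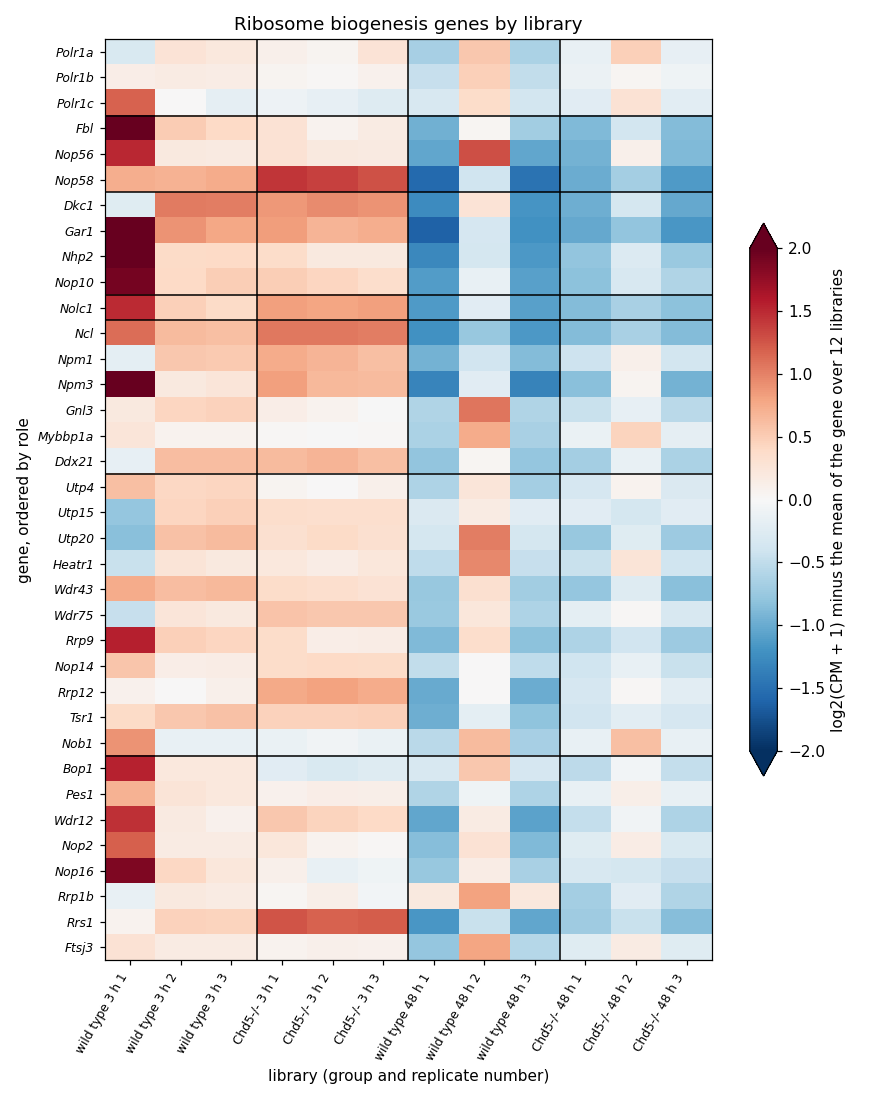
Level of each of the 36 genes (rows, ordered by role) in each of the 12 libraries (columns), as log2(CPM + 1) minus the mean of that gene over the 12 libraries. Colours end at 2 in both directions. The 48 h columns are mostly blue, except replicate 2 of wild type, where all 36 genes exceeded replicates 1 and 3.

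By TPM, Npm1 was the most abundant of the 36 in 3 of the 4 groups, with a mean of 588 TPM in wild type and 887 TPM in Chd5-/- at 3 h. Npm1 encodes nucleophosmin, a chaperone that forms the outer layer of the nucleolus. Rrp12, known from yeast as a factor of pre-ribosome export, and the polymerase subunit Polr1b were at the lower end at 3 h, with means of 4.29 and 6.44 TPM in wild type. Ranks of genes close to each other in that order rest on means that include the libraries standing apart.

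Every change from 3 h to 48 h that passed was a fall, in both genotypes. With all 12 libraries, 15 of 36 fell in wild type and none rose, against 10.1% of all 16043 tested genes that fell. In Chd5-/-, 12 of 36 fell and none rose, against 8.03% of all genes. The other 21 and 24 did not pass, and 2 and 3 of the 36 had a positive change. The median log2 change of the 36 was -0.84 in wild type and -0.75 in Chd5-/-, beside 0.09 and 0.04 over all genes. A gene passed at an adjusted p under 0.05 (edgeR quasi-likelihood test, Benjamini-Hochberg over all tested genes).

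Without the 3 libraries that stood apart, 35 of 36 fell in wild type, against 38.4% of all genes, and 34 of 36 fell in Chd5-/-, against 40.1%. The medians were then -1.14 and -0.91, beside 0.02 and 0.00 over all genes. The exceptions were Rrp1b in wild type (log2 change -0.03) and the polymerase subunit Polr1c and the endonuclease Nob1 in Chd5-/- (-0.08 and -0.07). All 15 and all 12 genes called with 12 libraries were called in the same direction with 9.

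The 2 times did not overlap in level for 17 of 36 genes in wild type over all libraries, all lower at 48 h, against 16.8% of all genes that were lower in this way. In Chd5-/- this held for 25 genes, against 32.4%. Among the 9 libraries it held for 35 genes in each genotype, against 42.5% of all genes in each. The gene that overlapped was Rrp1b in wild type and Polr1c in Chd5-/-.

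**Figure D2:**
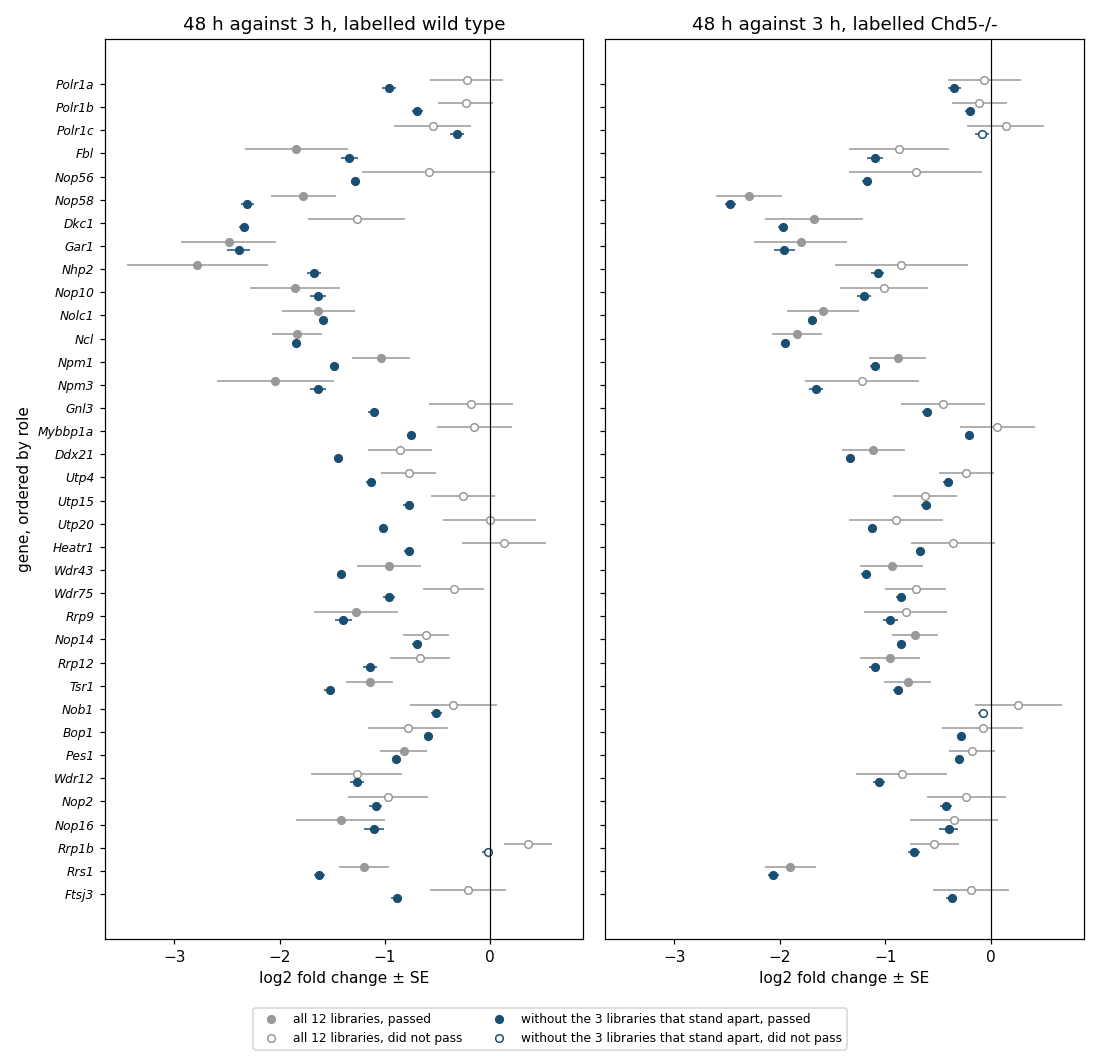
Log2 fold change from 3 h to 48 h with its standard error (horizontal axis) for each gene (rows), in libraries labelled wild type (left) and Chd5-/- (right). Grey points use all 12 libraries and blue points the 9 without those that stand apart, and filled points passed. Blue points lie left of 0 for all 36 genes in both panels.

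With 12 libraries, 2 of the 3 box C/D genes fell in wild type and 1 in Chd5-/-, and 3 and 2 of the 4 box H/ACA genes. Gar1, a box H/ACA protein, was at 132, 52.5 and 47.9 CPM in wild type at 3 h (replicates 1, 2 and 3) and at 8.37, 21.7 and 11.4 CPM at 48 h. The Chd5-/- libraries held 50.5, 45.2 and 46.6 CPM and then 13.2, 15.7 and 11.9 CPM. Every 48 h library was below every 3 h library, and wild-type replicate 1 at 3 h was far above the other 3 h libraries. The log2 change was -2.48 ± 0.45 (SE) in wild type (edgeR adjusted p = 0.00577) and -1.80 ± 0.44 in Chd5-/- (edgeR adjusted p = 0.0149).

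Nop58, a core protein of box C/D snoRNPs, which guide methylation of ribosomal RNA, was even across the 3 h libraries of wild type at 248, 244 and 252 CPM. It was at 403, 388 and 365 CPM in Chd5-/- at 3 h. At 48 h it was at 50.2, 113 and 53.4 CPM in wild-type libraries and at 74.4, 93.3 and 68.1 CPM in Chd5-/-. The 2 times were separate in both genotypes, and Chd5-/- was above wild type in every library at 3 h. Its log2 change was -1.78 ± 0.31 in wild type (edgeR adjusted p = 0.00514) and -2.29 ± 0.31 in Chd5-/- (edgeR adjusted p = 0.00115).

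Dkc1, the enzyme of box H/ACA snoRNPs that makes pseudouridine, was at 54.7, 135 and 133 CPM in wild type at 3 h and at 26.5, 79.1 and 28.2 CPM at 48 h. Here the times overlapped through the libraries that stood apart, and the change in wild type passed only without them, at -2.34 ± 0.05 with 9 libraries (edgeR adjusted p = 1.21e-13) against -1.27 ± 0.46 with 12 (edgeR adjusted p = 0.0694). The Chd5-/- libraries held 119, 125 and 122 CPM at 3 h and 32.3, 50.7 and 31.3 CPM at 48 h. That change passed in both fits, at -1.68 ± 0.47 with 12 libraries (edgeR adjusted p = 0.0268).

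Nhp2, another box H/ACA protein, had the largest change in wild type over 12 libraries, -2.78 ± 0.67 (edgeR adjusted p = 0.0170), and this value rested on 1 library. It was at 818, 125 and 126 CPM in wild type at 3 h and at 38.4, 74.4 and 42.6 CPM at 48 h. Without the libraries that stood apart the change was -1.67 ± 0.07 (edgeR adjusted p = 6.37e-11). Of the other snoRNP genes, the methyltransferase gene Fbl fell by 1.84 ± 0.49 in wild type (edgeR adjusted p = 0.0242), or by 0.97 without replicate 1 at 3 h (edgeR adjusted p = 0.0293). In Chd5-/- its change was -0.87 ± 0.48, which did not pass (edgeR adjusted p = 0.219). Without wild-type replicate 1 at 3 h it was -0.90 in Chd5-/- and passed (edgeR adjusted p = 0.021).

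Fbl and Nop56, the partner of Nop58, show how far single libraries set these means. Fbl was at 562, 161 and 151 CPM in wild type at 3 h, at 138, 119 and 127 CPM in Chd5-/- at 3 h, and between 57.8 and 116 CPM at 48 h in both genotypes. Nop56 was at 619, 247 and 243 CPM in wild type at 3 h, and at 104, 530.0 and 104 CPM at 48 h. The Chd5-/- libraries went from 263, 247 and 244 CPM to 111, 232 and 117 CPM. Coding transcripts held 20.2% to 52.3% of Nop56 reads, depending on the library. Its log2 change did not pass with 12 libraries in either genotype (-0.59 ± 0.63 and -0.71 ± 0.63), and passed with 9 (-1.28 ± 0.04 and -1.18 ± 0.04, edgeR adjusted p = 9.76e-12 and 7.83e-12).

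Among the nucleolar scaffolds, Ncl fell by a similar amount in both genotypes. Ncl encodes nucleolin, which binds the precursor RNA. It was at 1779, 1268 and 1244 CPM in wild-type libraries and at 1697, 1692 and 1669 CPM in Chd5-/- at 3 h, and at 352, 480.4 and 369 CPM and 448, 519 and 447 CPM at 48 h. No 48 h library reached a 3 h library, and the log2 change was -1.84 ± 0.24 in both (edgeR adjusted p = 0.00187 in wild type and 8.59e-04 in Chd5-/-). With an offset for effective transcript length it was -3.24 in wild type, and in Chd5-/- it was -1.78 and no longer passed (edgeR adjusted p = 0.0148 and 0.0894). Most Ncl reads were placed on a transcript annotated as a retained intron (Ncl-202), except in wild-type replicate 1 at 3 h, where Ncl-205, also a retained intron, held 8047 reads against 119 to 257 in the other 3 h libraries.

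Npm1 was at 641, 1059 and 1050.2 CPM in wild-type libraries and at 1218, 1168 and 1107 CPM in Chd5-/- at 3 h. At 48 h it was at 379, 557 and 402 CPM and at 547, 782 and 566 CPM. The times were separate in each genotype, with a log2 change of -1.04 ± 0.28 in wild type (edgeR adjusted p = 0.0239) and -0.88 ± 0.27 in Chd5-/- (edgeR adjusted p = 0.0414). Npm1 and its relative Npm3, a histone chaperone of the nucleolus, have processed copies in the genome, and how the counting shared reads with them is not given in the sources used here. Npm3 was at 237, 62.1 and 64.3 CPM in wild type at 3 h and at 21.2, 46.2 and 20.8 CPM at 48 h, a change of -2.04 ± 0.55 (edgeR adjusted p = 0.0262). Without replicate 1 at 3 h this was -1.13 and did not pass (edgeR adjusted p = 0.0558), and leaving out replicate 1 or 3 at 48 h also ended the call. In Chd5-/- the change of Npm3 was -1.22 ± 0.54 and did not pass (edgeR adjusted p = 0.132). With 9 libraries Npm3 fell in both. Mybbp1a, which binds MYB and takes part in processing of the precursor, and Gnl3 (nucleostemin) did not pass with 12 libraries, with changes between -0.45 and 0.06. Coding transcripts held 12.7% to 58.1% of Gnl3 reads, depending on the library.

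The 3 RNA polymerase I subunits had the median change closest to 0 of any role, in both genotypes and with 12 or 9 libraries, though no test compared the roles. The catalytic subunit gene Polr1a was at 63.1, 94.8 and 91.4 CPM in wild-type libraries and at 84.7, 81.1 and 94.9 CPM in Chd5-/- at 3 h. At 48 h it was at 48.9, 114 and 50.0 CPM in wild-type libraries and at 70.8, 109.9 and 69.8 CPM in Chd5-/-. Replicate 2 was the highest library in both 48 h groups, so the times overlapped. Coding transcripts held 5.57% to 37.9% of Polr1a reads, so these levels mostly count its other annotated transcripts. The log2 changes of Polr1a were -0.22 ± 0.35 and -0.06 ± 0.35 with 12 libraries and -0.96 ± 0.07 and -0.34 ± 0.06 with 9, where both passed (edgeR adjusted p = 1.75e-08 and 1.33e-04). The 3 subunits had median changes of -0.69 in wild type and -0.19 in Chd5-/- with 9 libraries, beside -2.01 and -1.58 for the 4 box H/ACA genes.

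**Figure D3:**
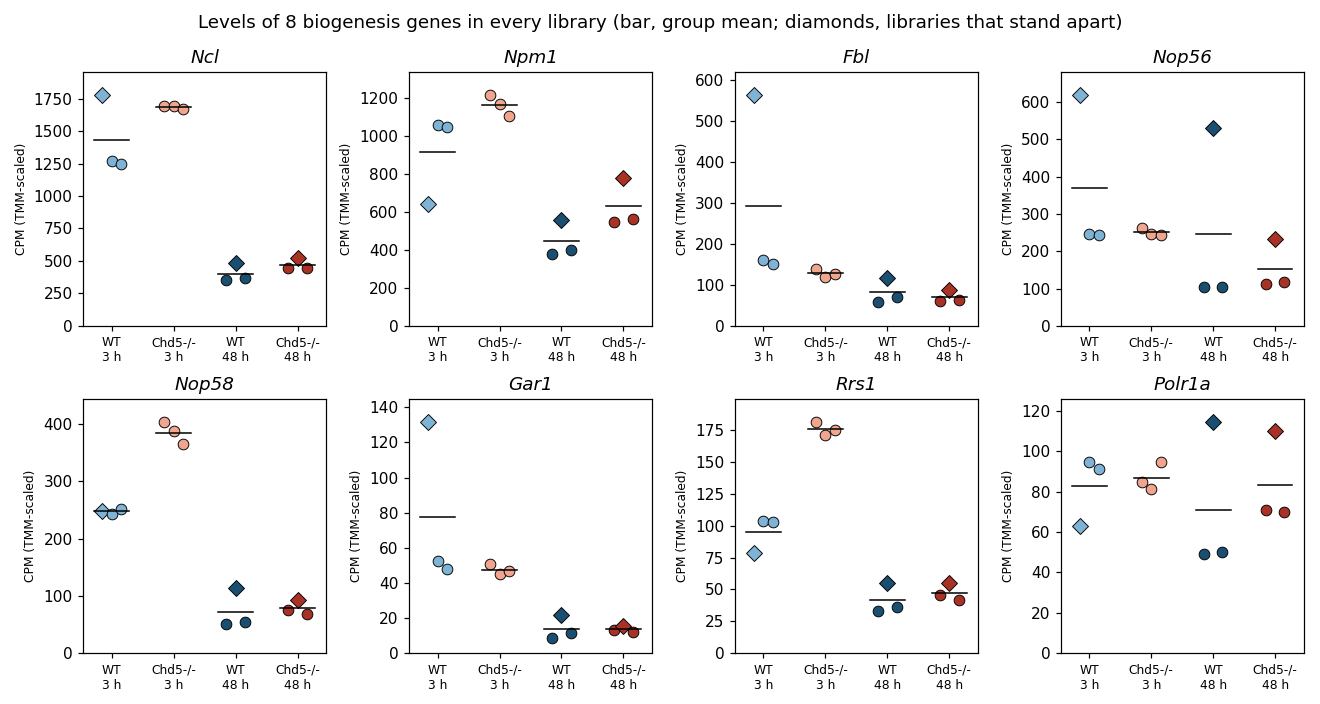
TMM-scaled CPM of 8 genes in every library, by group. Bars are means of the 3 libraries and diamonds mark the libraries that stand apart. Ncl, Nop58, Gar1 and Rrs1 show no overlap between 3 h and 48 h in either genotype, whereas Polr1a and Nop56 overlap in wild type through the diamonds.

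Of the 11 small subunit factors, 3 fell in wild type (Tsr1, Wdr43 and Rrp9) and 4 in Chd5-/- (Tsr1, Wdr43, Nop14 and Rrp12) with 12 libraries, and 11 and 10 with 9. Tsr1, a GTPase-like factor of late assembly, was at 103, 115 and 119 CPM and then at 39.6, 68.1 and 44.4 CPM in wild type. Chd5-/- libraries held 108, 109 and 109.6 CPM and then 59.7, 67.6 and 61.9 CPM. The times were separate in both genotypes, with log2 changes of -1.15 ± 0.22 (edgeR adjusted p = 0.00740) and -0.79 ± 0.22 (edgeR adjusted p = 0.0280).

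Of the 8 large subunit factors, Rrs1, Pes1 and Nop16 fell in wild type and only Rrs1 in Chd5-/- with 12 libraries, and 7 and 8 fell with 9. Rrs1, known from yeast for bringing the 5S RNA particle into the large subunit, was at 78.6, 103.8 and 103 CPM in wild-type libraries and at 181, 172 and 176 CPM in Chd5-/- at 3 h. At 48 h it was at 33.1, 54.9 and 36.1 CPM and at 45.3, 55.1 and 41.3 CPM. The times were separate in both genotypes, and at 3 h the genotypes were separate too. Its change was -1.20 ± 0.24 in wild type (edgeR adjusted p = 0.00799) and -1.90 ± 0.24 in Chd5-/- (edgeR adjusted p = 8.19e-04).

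For 6 of the 15 calls in wild type (Nop58, Gar1, Rrs1, Ncl, Tsr1 and Nolc1) and 4 of the 12 in Chd5-/- (Nop58, Rrs1, Ncl and Nolc1), the call held whichever single library was left out, and every other call was lost without at least 1 library. Over all 15 and 12 calls, the adjusted p with 1 library left out reached at most 0.148 and 0.166 (edgeR). In a fit of the wild-type libraries alone, no gene of the genome passed, so the wild-type calls also rest on the spread of the other libraries.

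Most of the further pathway genes that passed fell as well. Of 121 further biogenesis genes in 5 lists, 120 were tested. With 12 libraries, 34 fell and 1 rose in wild type, against 10.1% and 12.7% of all genes, and 21 fell and 2 rose in Chd5-/-, against 8.03% and 14.1%. With 9 libraries, 106 fell and 5 rose, against 38.4% and 37.6% of all genes, and 95 fell and 13 rose, against 40.1% and 38.9%. Examples with 12 libraries were Nifk, which binds the Ki-67 protein, at -1.28 ± 0.18 in wild type and -1.20 ± 0.18 in Chd5-/- (edgeR adjusted p = 0.00253 and 0.00177), and the exosome subunit Exosc3 at -1.07 ± 0.19 and -1.20 ± 0.19 (edgeR adjusted p = 0.00514 and 0.00188). Taf1c, a subunit of the factor that brings RNA polymerase I to its promoter, rose by 1.14 ± 0.33 in Chd5-/- (edgeR adjusted p = 0.0298).

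The 48 h replicate 2 libraries kept higher levels. In wild type, replicate 2 was above replicates 1 and 3 for all 36 genes, against 46.1% of all genes, with a median log2 difference of 0.95 beside -0.01 over all genes. The largest differences were in Nop56 (5.09-fold) and Gnl3 (3.22-fold), and the smallest in Ncl (0.41 on the log2 scale). In wild-type replicate 2, coding transcripts held 36.7% of Nop56 reads and 12.7% of Gnl3 reads. Most reads of both were thus placed on other annotated transcripts. In Chd5-/-, replicate 2 was above the other 2 for 34 genes and below them for 1 (Utp15), against 45.0% and 46.1% of all genes, with a median of 0.41. These are single libraries, so no test was made.

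Replicate 2 did not keep all genes at the 3 h level. In wild type it was below replicates 2 and 3 at 3 h for 20 genes and above them for 13, against 46.9% and 46.4% of all genes. These wild-type shares were near the background, with a median log2 difference of -0.15 beside -0.01 over all genes. In Chd5-/- replicate 2 was below all 3 libraries at 3 h for 25 genes and above them for 7, against 43.8% and 44.6%. There the median was -0.53. Nop58 and Ncl were far below their 3 h levels in both replicate 2 libraries, as the values above show. The 15 mitosis genes summed to 2702 and 2432 CPM in these 2 libraries and to 169 and 170.2 CPM in the lowest of the other 48 h libraries, whereas at 3 h they summed to 2709 to 4372 CPM. Astrocyte markers summed to 103 and 145 CPM in replicate 2 and reached 564 and 798 CPM in the other 48 h libraries. Their part in the levels of the biogenesis genes was not tested.

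Myc, whose product drives many biogenesis genes, was at 204 CPM in wild-type replicate 2 at 48 h and at 43.1 and 42.5 CPM in replicates 1 and 3. In Chd5-/- it was at 112 CPM in replicate 2 and at 39.1 and 40.1 CPM in the others. At 3 h it was between 100.5 and 102 CPM in wild type and between 57.9 and 64.3 CPM in Chd5-/-. Its part in the biogenesis levels was not tested.

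**Figure D4:**
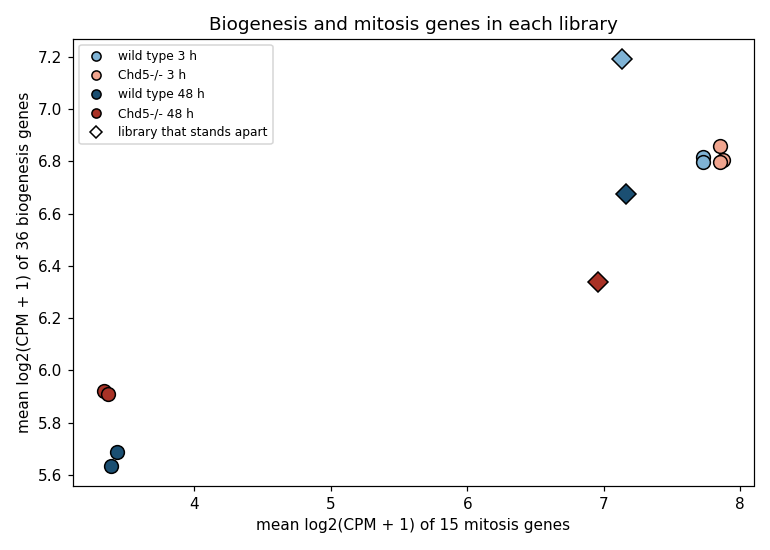
Mean log2(CPM + 1) of the 36 biogenesis genes (vertical axis) against that of 15 mitosis genes (horizontal axis), 1 point per library. The 4 ordinary 48 h libraries lie at the lower left, with biogenesis means of 5.64 to 5.92, and replicate 2 of both genotypes (diamonds, 6.67 and 6.34) lies nearer the 3 h libraries.

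At 3 h, 1 of the 36 genes differed between genotypes with all 12 libraries. Rrs1 was higher in Chd5-/- by 0.89 ± 0.24 (edgeR adjusted p = 0.0489), against 3.24% of all genes that were higher. The call was lost in 10 of 12 fits with 1 library left out, with an adjusted p of up to 0.159 (edgeR), and no gene passed in a fit of the 3 h libraries with the replicate number as a block. With all 12 libraries, DESeq2 (0.84, adjusted p = 0.00574) and limma-voom (0.90, adjusted p = 0.0436) called Rrs1 too. The direction did not turn in any fit with 1 library left out, and no library of one genotype overlapped the other. The genotypes did not overlap at 3 h for 17 of the 36, 5 higher and 12 lower in Chd5-/-, against 23.9% and 21.1% of all genes.

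Wild-type replicate 1 at 3 h weighed on this comparison. It was above replicates 2 and 3 for 21 of the 36 genes and below them for 13, against 44.8% and 49.7% of all genes. Across the 36 genes its log2 ratio to replicates 2 and 3 was lower for longer transcripts (Pearson r = -0.48, Spearman rho = -0.49 over 36 genes, which are not independent replicates and share these libraries). Of 25 genes under 2000 bases of effective length 19 were higher in it, and of 11 longer genes 4 were. Its reads had a weighted mean transcript length of 1805 bases, against 3049 and 3077 bases in the other 2. A fit with an offset for effective transcript length called none of the 36 at 3 h and turned Ncl from 0.24 to -1.26, neither of which passed (edgeR adjusted p = 0.564 and 0.278).

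Without the libraries that stood apart, 10 genes were higher and 12 lower in Chd5-/- at 3 h, against 27.2% and 25.3% of all genes, so the shares were near the background. The genotypes did not overlap for 11 higher and 17 lower genes, against 33.6% of all genes in either direction. The 3 largest differences upward were Rrs1 (0.77 ± 0.04, edgeR adjusted p = 5.96e-09), Rrp12 (0.72 ± 0.05, edgeR adjusted p = 5.63e-08) and Nop58 (0.64 ± 0.05, edgeR adjusted p = 7.06e-08). Downward they were Bop1, a subunit of the PeBoW complex of the large subunit (-0.48 ± 0.04, edgeR adjusted p = 1.10e-07), Gnl3 (-0.38 ± 0.04, edgeR adjusted p = 7.60e-06) and Nop16, another large subunit factor (-0.37 ± 0.08, edgeR adjusted p = 0.00181). As given above, Acta2 and the summed neuron (mostly Map2) and stem cell markers were higher in these 3 Chd5-/- libraries. Col3a1 and the summed astrocyte markers were lower, and the part of any of these in the differences was not tested. The sign turned between 12 and 9 libraries for 10 genes at 3 h, none of which passed with 12 and 6 of which passed with 9. These were Npm3 (-0.45 to 0.49), Nolc1 (-0.07 to 0.39), Wdr12 (-0.26 to 0.34), Utp20 (0.07 to -0.27), Dkc1 (0.18 to -0.13) and Utp15 (0.19 to -0.12).

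Rrp12 was at 42.3, 39.8 and 42.8 CPM in wild-type libraries and at 67.8, 70.1 and 66.6 CPM in Chd5-/- at 3 h. Here wild-type replicate 1 lay between the other 2, so the separation of the genotypes did not rest on it. With 12 libraries the difference was 0.71 ± 0.28 and did not pass (edgeR adjusted p = 0.161). Bop1 was at 342, 136 and 137 CPM in wild-type libraries and at 100.5, 94.9 and 97.9 CPM in Chd5-/-, and all 3 wild-type libraries were above.

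At 48 h, none of the 36 genes differed between genotypes with 12 libraries (edgeR), against 2.74% of all genes. One had an unadjusted p under 0.05 (Rrp1b), DESeq2 called 1 (Rrp1b, adjusted p = 0.00205) and limma-voom 0. The median difference was 0.03, beside -0.02 over all genes. Rrp1b, a nucleolar protein that targets a phosphatase to the nucleolus, was the 1 gene whose genotypes did not overlap, against 10.9% of all genes that were lower in this way. It was at 67.9, 104 and 68.6 CPM in wild-type libraries and at 36.6, 50.5 and 38.5 CPM in Chd5-/-, a difference of -0.94 ± 0.23 (edgeR adjusted p = 0.0649). Most of these reads were placed on Rrp1b-205, annotated as a retained intron. It held 718, 895 and 698.5 reads in wild type and 352, 515 and 379 in Chd5-/-. Coding transcripts held at most 9.64% of Rrp1b reads at 48 h.

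Pairing replicates by number at 48 h, where only replicate 2 was set apart by the data, gave 2 calls: Rrp1b was lower by a log2 difference of -0.93 (edgeR adjusted p = 0.0151) and Npm1 was higher by 0.50 (edgeR adjusted p = 0.0474). No label pairs these libraries, and replicates 1 and 3 correlated as well across numbers. The 2 calls thus rest on a pairing taken from the same data. Npm1 was 1.40-fold higher in Chd5-/- between the replicate 2 libraries and 1.43-fold higher between the means of replicates 1 and 3. Unpaired, its difference was 0.50 ± 0.27 (edgeR adjusted p = 0.595). Utp20, a scaffold of the small subunit precursor, had the next smallest p of the unpaired fit, at -0.82 ± 0.45 (edgeR adjusted p = 0.593).

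Replicates 1 and 3 and replicate 2 went opposite ways at 48 h for most genes. On log2(CPM + 1), 31 of 36 genes were higher in Chd5-/- in replicates 1 and 3 (median 0.32), against 50.6% of all genes (median 0.0045). Between the replicate 2 libraries 29 were lower and 7 higher in Chd5-/- (median -0.25), against 51.1% and 48.5% of all genes. Nop56, Gnl3 and Utp20 were lowest between the replicate 2 libraries, at 0.438, 0.421 and 0.414 times the wild-type level. Rrp1b, Utp20, Bop1, Wdr43 and Fbl were lower in Chd5-/- in both, and Npm1, Npm3, Pes1, Nhp2, Ncl, Rrp12 and Rrs1 were higher in both, the last 2 by 0.014 and 0.0050 between the replicate 2 libraries.

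**Figure D5:**
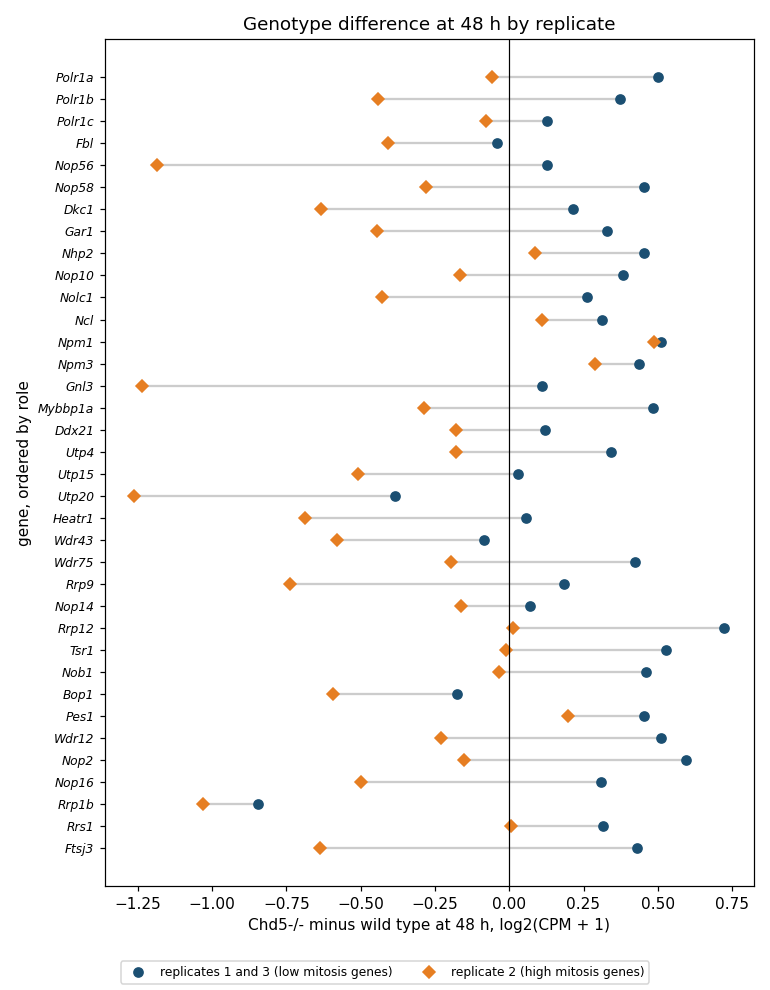
Chd5-/- minus wild type at 48 h on log2(CPM + 1) for each gene, for the mean of replicates 1 and 3 (circles) and for replicate 2 (diamonds). Circles lie right of 0 for 31 genes and diamonds left of 0 for 29. Rrp1b lies left of 0 in both.

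With 9 libraries, which keep replicates 1 and 3 of each genotype at 48 h, 25 genes were higher and 3 lower in Chd5-/-, against 25.6% and 21.6% of all genes. The median was 0.34, beside 0.02 over all genes. The genotypes did not overlap for 30 higher and 4 lower genes, against 37.9% and 35.9% of all genes. By role, all 4 box H/ACA genes, 5 of 6 scaffolds and chaperones, 6 of 8 large subunit factors and 5 of 11 small subunit factors were higher. Of these 28, 7 had the other sign with 12 libraries, where they did not pass (Ftsj3, Gar1, Nop16, Nolc1, Dkc1, Nop56 and Ddx21). These fits rest on 2 libraries per genotype that differ little from each other. As given above, some cell type markers also differed between genotypes at 48 h, and their part in these differences was not tested.

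Rrp12 had the largest upward difference, 0.77 ± 0.07 (edgeR adjusted p = 1.27e-06), at 19.2 and 19.5 CPM in wild-type replicates 1 and 3 and at 31.2 and 33.9 CPM in Chd5-/-. Replicate 2 was at 40.0 and 40.4 CPM, so the genotypes were level there. Nop2, a methyltransferase of the large subunit RNA, was at 54.5 and 53.0 CPM in wild-type libraries and at 83.4 and 79.9 CPM in Chd5-/-, with 121 and 109 CPM in replicate 2. Its difference was 0.62 ± 0.06 (edgeR adjusted p = 4.65e-06), and that of Tsr1 was 0.55 ± 0.06 (edgeR adjusted p = 3.87e-06). The 3 lower genes were Rrp1b (-0.85 ± 0.06, edgeR adjusted p = 1.06e-07), Utp20 (-0.38 ± 0.05, edgeR adjusted p = 2.26e-05) and Bop1 (-0.17 ± 0.04, edgeR adjusted p = 0.00528).

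Of the 120 further pathway genes tested, none passed at 48 h with 12 libraries (edgeR), where 4 had an unadjusted p under 0.05. With 9 libraries 47 were higher and 13 lower in Chd5-/-, against 25.6% and 21.6% of all genes, and 60 did not pass. Imp4 and Utp6 of the small subunit were higher by 0.69 ± 0.04 and 0.58 ± 0.05 (edgeR adjusted p = 3.98e-08 and 5.84e-07). Polr1d, a subunit shared by RNA polymerases I and III, was lower by a log2 difference of -0.88 ± 0.05 at 48 h and -0.81 ± 0.04 at 3 h (edgeR adjusted p = 2.29e-08 and 4.99e-09). At 3 h, 15 were higher and 52 lower with 9 libraries, against 27.2% and 25.3% of all genes, and 0 and 2 with 12, against 3.24% and 3.48%.

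The change over time differed between genotypes for none of the 36 genes with 12 libraries (edgeR interaction term), against 0.231% of all genes. One had an unadjusted p under 0.05 (Rrp1b), and DESeq2 and limma-voom called 0. With 9 libraries 21 passed, 19 with a smaller fall in Chd5-/- (a positive term) and 2 with a larger fall (Rrp1b and Rrs1), against 19.3% and 21.1% of all genes. The median term was 0.28, beside 0.00 over all genes. All 4 box H/ACA genes had a positive term that passed, and none of the 3 box C/D genes passed.

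Utp4, a small subunit factor, had the largest positive term. It was at 74.6 and 75.3 CPM in wild-type replicates 2 and 3 at 3 h and at 36.1 and 34.5 CPM in replicates 1 and 3 at 48 h. Chd5-/- libraries held 58.5, 56.3 and 59.98 CPM and then 44.3 and 45.8 CPM. Among these libraries, wild type was thus higher at 3 h and lower at 48 h. In replicate 2 at 48 h, which this fit left out, wild type was higher, at 66.7 against 58.8 CPM. The term was 0.73 ± 0.07 (edgeR adjusted p = 2.74e-06), against 0.54 ± 0.37 with 12 libraries (edgeR adjusted p = 0.624).

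Rrp1b went the other way. It was at 68.2 and 66.3 CPM in wild-type replicates 2 and 3 at 3 h and stayed at 67.9 and 68.6 CPM in replicates 1 and 3 at 48 h. The Chd5-/- level went from 60.7, 64.3 and 57.0 CPM to 36.6 and 38.5 CPM. The 4 wild-type values span a narrow range and lie above every Chd5-/- value at 48 h. The term was -0.70 ± 0.08 with 9 libraries (edgeR adjusted p = 1.13e-05) and -0.89 ± 0.33 with 12 (edgeR adjusted p = 0.391). Coding transcripts held at most 27.4% of Rrp1b reads in any library, so these levels mostly count its other annotated transcripts.

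Promoter sequence was examined because the genes moved together. Of the 36 genes, 31 had a window from 250 bases before to 50 bases after the gene start in RefSeq (GRCm38.p6), read on both strands. The search covered 3 motifs that share no stretch with each other. The first was CACGTG, the E-box bound by MYC and related factors, which reads the same on both strands. The second was CCGGAAG, a motif of ETS family factors. The third was the TATAAA core of many promoters. CACGTG was in 7 of 31 windows (22.6%), in 18 of 103 windows of the further pathway genes (17.5%), and in 8.09% of the windows of 27025 genes. CCGGAAG was in 8 of 31 (25.8%), 46 of 103 (44.7%) and 9.93%, and TATAAA in 2 of 31 (6.45%), 7 of 103 (6.80%) and 15.7%.

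The 7 E-box sites are shown because their genes include Utp4, Nop2 and Tsr1, which are described above, with CACGTG in capitals, on the strand of the gene and 5′ to 3′.
Nop2: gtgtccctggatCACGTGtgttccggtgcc
Utp4: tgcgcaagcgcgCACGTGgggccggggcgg
Utp20: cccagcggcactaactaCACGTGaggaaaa
Pes1: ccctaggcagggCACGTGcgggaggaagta
Mybbp1a: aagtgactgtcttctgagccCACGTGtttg
Tsr1: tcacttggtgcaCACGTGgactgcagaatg
Wdr43: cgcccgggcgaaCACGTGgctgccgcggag
They lie at chr6:125131811-125131840 (plus strand), chr8:106893643-106893672 (plus), chr10:88826765-88826794 (minus), chr11:3963965-3963994 (plus), chr11:72441347-72441376 (plus), chr11:74898092-74898121 (plus) and chr17:71616220-71616249 (plus), in the same order. In Nop2 the first base of the motif is 60 bases before the RefSeq start, and in the other 6 it falls at base 3 to base 41 of the first transcribed bases.

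In the 9 libraries, where 19.3% of all genes had a positive interaction term that passed, 6 of these 7 genes had one (median 0.60), and 11 of the 24 windows without the motif belonged to genes that did (median 0.22), with 1 negative. With 12 libraries none of these terms passed. The fall from 3 h to 48 h had a median of -1.09 in wild type and -0.42 in Chd5-/- for the genes with the motif, and of -1.19 and -0.90 for those without. These are descriptions of 7 genes, with no test, and the motif was set out with these terms already known. Utp4, Tsr1 and Nop2 also hold CCGGAAG, for which no such split was made. The part of either motif was not tested. A match shows letters in a window, not a bound site.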

How the data were processed

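Poly(A) RNA libraries (TruSeq Stranded mRNA kit, Trizol extraction, per the labels' protocols) were quantified with Salmon per the submitters' processing notes. Which version, settings and index they used is not given in the sources used here. Per the file headers, the deposited tables hold estimated counts, TPM and effective lengths in bases for 140658 transcripts. Names were matched to GENCODE M21 (GRCm38). The 521 that did not match were left out. Deposited estimated counts were summed per gene and rounded. TPM was summed per gene, and effective length was averaged per gene with TPM as the weight. For the length comparison it was then averaged over libraries, weighted by reads.

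Counts were tested with edgeR 4.0.16 (R 4.3.3) by two-sided quasi-likelihood F tests, with TMM scaling, filterByExpr (minimum count 10, total 15; 16043 genes) and 1 mean per group over 12 libraries. Fold changes are log2 with their standard error. The alternatives were the 9 libraries, RLE, 2 filters, DESeq2 1.42.0, limma-voom (limma 3.58.1), a length offset, fewer groups, replicate blocks and each library left out. The scripts were tested on simulated counts. At 14.11 to 18.71 M reads, every one of the 36 genes had at least 137 reads in a library. No 2 libraries of a group agreed within sampling noise (chi-square per gene of 1.79 or more).

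Deviations from the group means correlated between same-numbered libraries of the 2 genotypes (r = 0.261, 0.133 and 0.125 at 3 h; 0.704, 0.788 and 0.705 at 48 h), so numbers were taken as pairs for the genotype comparisons, from the data and not from the labels. At 48 h, replicates 1 and 3 of the 2 genotypes correlated as well across numbers (r = 0.717 and 0.713), and at 3 h replicates 2 and 3 did (r = 0.134 and 0.136), so the numbers set apart 1 library per group rather than 3 pairs. Across times they did not correlate (r between -0.03 and 0.02).

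The genes, lists, motifs and libraries left out were chosen with earlier results of these data known. Genes given with values are those with the largest changes that passed (the 3 per direction and fit), or the smallest p where none passed, plus Ncl, Npm1, Fbl, Nop56 and Polr1a. Other genes were named to state exceptions, after their values were seen. Promoter windows and sites are from RefSeq (GRCm38.p6).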

Additional observations from a re-analysis of the deposited data

Results flagged for a closer look

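The change from 3 h to 48 h differed between the genotypes by a test of the difference itself for 21 of the 36 genes (edgeR interaction term, 9 libraries, adjusted over 16489 genes), 19 with a positive and 2 with a negative term, against 19.3% and 21.1% of all genes. The 3 largest positive terms and both negative ones are given. They were 0.73 for Utp4, 0.70 for Nop16 and 0.67 for Nop2, whose fall was smaller in the libraries labelled Chd5-/-, and -0.70 for Rrp1b and -0.44 for Rrs1, whose fall was larger. With all 12 libraries none of the 36 passed, and these genes had terms of 0.54, 1.08, 0.74, -0.89 and -0.70. The 9 libraries left for this test hold 2 per group, or 3 in Chd5-/- at 3 h.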

How the results depend on the processing

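The number of the 36 genes called depended mainly on whether the 3 libraries that stood apart were included. Without them edgeR called 22 at 3 h, 28 at 48 h, 35 over time in wild type, 34 over time in Chd5-/- and 21 in the interaction, and DESeq2, added after the data were seen, called 20, 23, 35, 33 and 19. Between genotypes at 3 h, RLE, no filter on low counts and the length offset gave 0 and the 2 groups alone gave 2. At 48 h DESeq2 gave 1. Over time in wild type the 2 groups alone gave 0, and in Chd5-/- they gave 24, while no filter gave 7. The replicate block in the 12-library fit changed none of the 5 counts. Within the groups compared, an alternative added after the data were seen, the replicate block gave 0 at 3 h, 2 at 48 h, 0 over time in wild type and 23 in Chd5-/-. With 1 library left out the counts ran from 0 to 3, 0 to 1, 6 to 27, 4 to 19 and 0 to 0 (3 h, 48 h, time in wild type, time in Chd5-/-, interaction).

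Every call over time under all settings was a fall. Of the 36 genes, 10 at 3 h, 12 at 48 h, 2 over time in wild type, 3 over time in Chd5-/- and 10 in the interaction turned direction between 12 and 9 libraries. None of them had passed with 12, and 6, 7, 1, 1 and 2 passed with 9. At 3 h, Ncl was at -1.26 with the length offset, Nop56 at 0.037 and Polr1a at -0.10 without the 3 libraries, and 0.018 and -0.12 in DESeq2 without them. At 48 h, Nop56 was at 0.14 without the 3, where it passed (edgeR adjusted p = 0.0197), and 0.12 in DESeq2. With 1 library left out, Nop56 ran from -0.77 to 0.038 at 3 h and from -1.11 to 0.56 at 48 h, Polr1a from -0.10 to 0.18 and from -0.020 to 0.76, Fbl from -0.40 to 0.14 at 48 h, and Polr1a over time in Chd5-/- from -0.32 to 0.051. The cause was not tested. Every gene had at least 137 reads in each library.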
